A study of Mus musculus with 2 samples.

Results

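The 10 genes described here encode enzymes and transporters that take up nucleosides, salvage them and break them down in the mouse duodenum: Ada, Xdh, Pnp, Gda, Nt5e, Enpp3, Cda, Upp1, Slc28a1 and Slc28a2. They were chosen by name, as the rows of the deposited gene and transcript tables that carry these symbols, and all 10 were found among 43346 gene rows. No measured value entered the choice, although earlier results of these data were known when it was made. Expression was measured by RNA-seq of polyadenylated, ribosomal RNA-depleted RNA longer than 200 nucleotides, read from both fragment ends with strand kept. The study has 1 group, whole duodenum of adult C57BL/6J mice of 8 weeks, sequenced as 2 libraries labelled biological replicate 1 and biological replicate 2. Each library pooled tissue of male and female littermates, and both carry the same donor entry but separate tissue entries, so the spread between them is not that between single mice. The labels do not say whether the same animals entered both pools. No treatment, mutation or other tissue was compared. Where both libraries are set side by side, a ratio is replicate 1 over replicate 2.

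Nucleic acids from food and from shed cells reach the small intestine as nucleotides and nucleosides. Ectoenzymes on the cell surface remove phosphates, sodium-coupled carriers bring the nucleosides into the enterocyte, and cytosolic enzymes deaminate them, split base from sugar and oxidise purine bases to urate. Salvage enzymes return bases and nucleosides to the nucleotide pool.

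The libraries had similar depth, with 44977004 estimated fragments in replicate 1 and 45438504 in replicate 2, but they differed in composition before any of these genes is considered. The 12 markers of the exocrine pancreas summed to 73552 TPM (the files' unit of level, corrected for transcript length and library size) in replicate 1 and 133.1 TPM in replicate 2, and 10 markers of stomach mucosa and Brunner glands summed to 24733 TPM and 89.5 TPM. Of those 10, 8 were called higher in replicate 1 and 1 in replicate 2. Enterocyte markers were present in both: the 12 summed to 1895 TPM in replicate 1 and 6137 in replicate 2, and none was at 0. Of these 12 enterocyte markers, 8 were called higher in replicate 2 and 0 in replicate 1. Of 5 markers of upper villus enterocytes, 3 were called higher in replicate 2. Markers of several other cell types were also higher there: 4 of 4 of fat cells (sums of 13.7 TPM in replicate 1 and 380.8 in replicate 2), 5 of 5 of red blood cells, 4 of 5 of goblet cells and 4 of 5 of Paneth cells were called, with 0 called higher in replicate 1. Fewer cells of a type and less RNA per cell cannot be told apart in whole tissue. The part of these differences in the results below was not tested, except where a rescaled value is given.

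Cda was the most abundant of the 10 genes and Nt5e the least. By mean TPM over both libraries the order was Cda (560.8 ± 9.72, SD, n = 2), Upp1 (173.9 ± 87.2), Ada (143.7 ± 91.1), Xdh (105.3 ± 30.2), Slc28a1 (97.8 ± 24.9), Gda (91.5 ± 30.1), Pnp (48.5 ± 13.3), Enpp3 (31.3 ± 15.9), Slc28a2 (16.3 ± 16.5) and Nt5e (4.43 ± 2.23). Among neighbours in this order, both libraries of Cda lay above both of Upp1, and both of Gda lay above both of Pnp, while the other neighbours overlapped. The last 4 genes held the same places in each library. In replicate 1 the order after Cda was Xdh, Gda and Upp1, and in replicate 2 it was Upp1, Ada and Slc28a1. All 10 genes had at least 1 TPM in both libraries, and together they summed to 1131.6 TPM in replicate 1 and 1415.3 TPM in replicate 2.

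**Figure D1:**
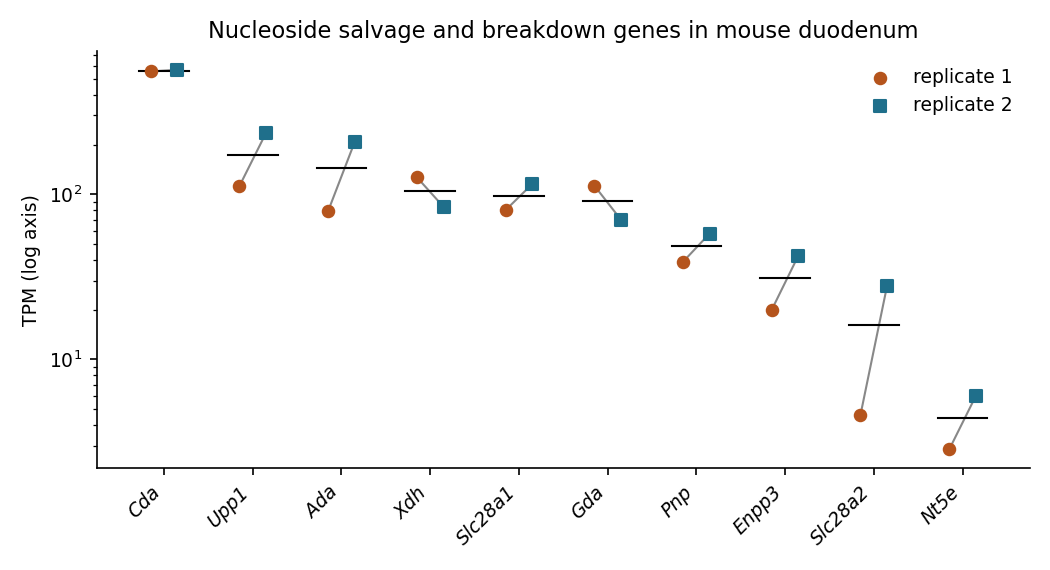
TPM of each of the 10 genes on a log axis, with replicate 1 as circles left of replicate 2 as squares and a horizontal bar at their mean. Cda lies at 553.9 and 567.6 TPM, and 8 of the 10 genes have the higher TPM in replicate 2, all but Xdh and Gda.

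Between the libraries, 5 of the 10 genes were called higher in replicate 2 and 0 were called higher in replicate 1. A gene was called where an exact two-sided binomial test of its counts, given library sizes scaled by the trimmed mean of M-values (TMM), had a Benjamini-Hochberg adjusted p under 0.05 over 15921 genes and the scaled ratio was at least 2-fold. Of all genes tested, 11.4% were called higher in replicate 2 and 14.5% higher in replicate 1. The genes called were Slc28a2, Ada, Upp1, Enpp3 and Nt5e. The median log2 ratio was -0.93 over the 10 genes and 0.04 over all genes tested, where a negative value is higher in replicate 2. The test compares these 2 libraries and its error is counting error only. The calls depend on the scale chosen: with library sizes set so that the median enterocyte marker had a ratio of 1, the calls were 1 gene higher in replicate 2, Slc28a2, and 3 higher in replicate 1, Cda, Gda and Xdh. That scale moved each ratio by the same 1.55 log2 units toward replicate 1, and on it 1.58% of all genes tested were called higher in replicate 2 and 76.2% higher in replicate 1.

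**Figure D2:**
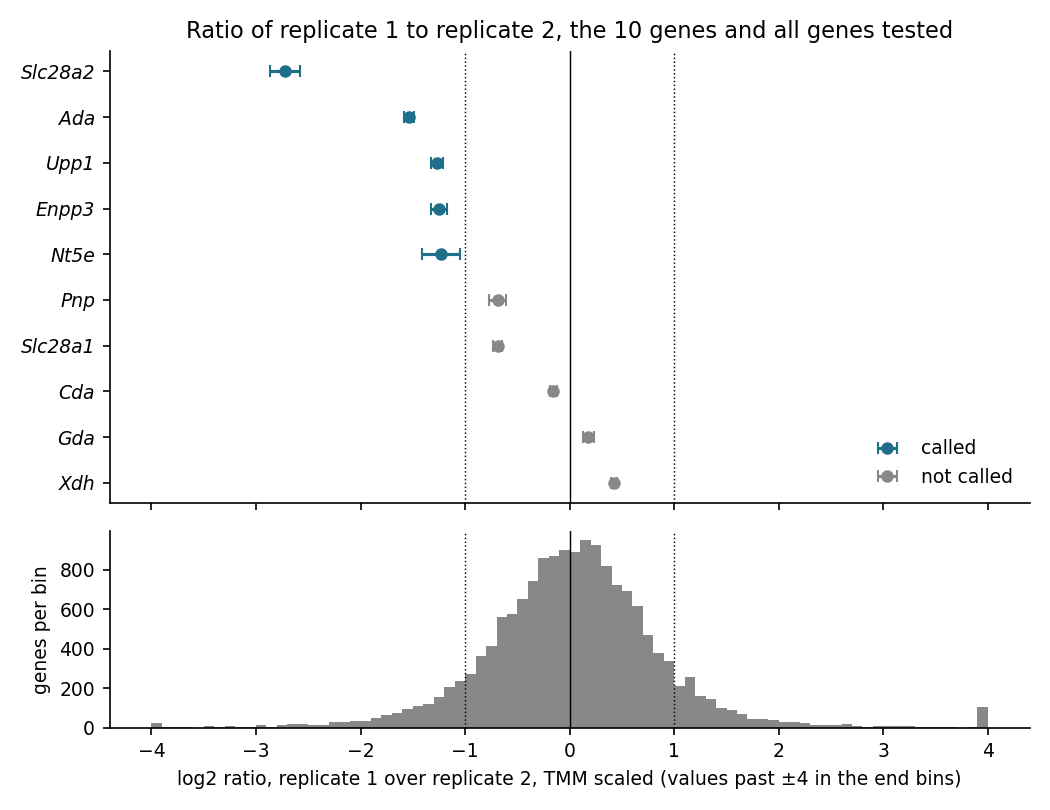
Upper panel: log2 ratio of replicate 1 over replicate 2 for each of the 10 genes, with bars for the 95% counting interval. Lower panel: the number of tested genes per bin of the same ratio. Dotted lines mark 2-fold, and 5 genes lie beyond the left line, from Nt5e at 2.35-fold to Slc28a2 at 6.60-fold higher in replicate 2.

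Enpp3 and Nt5e act on nucleotides outside the cell. Enpp3 (ENSMUSG00000019989.7, chromosome 10, 24772406 to 24842823, minus strand, build mm10) encodes a surface pyrophosphatase and phosphodiesterase that cleaves extracellular nucleoside triphosphates to monophosphates. Its level was 19.99 TPM in replicate 1 and 42.5 TPM in replicate 2, from 2148 and 4388 fragments. It was 2.38-fold higher in replicate 2 (95% interval 2.26 to 2.51). In mice Enpp3 is also known from basophils and mast cells, whose markers had 3 of 4 tested called higher in replicate 1 and sums of 20.9 TPM in replicate 1 and 9.87 TPM in replicate 2; their part in the Enpp3 difference was not tested.

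Nt5e (ENSMUSG00000032420.7, chromosome 9, 88327197 to 88372092, plus strand), the CD73 ectonucleotidase that turns AMP into adenosine, had 2.85 TPM in replicate 1 and 6.01 in replicate 2, from 370 and 745 fragments. It was 2.35-fold higher in replicate 2 (95% interval 2.07 to 2.67, exact binomial test, adjusted p = 5.58e-43). The fold was 1.99 with spike-in totals or library totals as the scale, which ends the call. The ratio of Enpp3 to Nt5e was nearly the same in each library, 7.01 in replicate 1 and 7.08 in replicate 2 in TPM. Entpd8, another surface enzyme that strips phosphates from nucleotides, stood above both with 117.4 TPM in replicate 1 and 232.5 in replicate 2, which is 5.87 and 5.46 times the TPM of Enpp3.

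Nt5e was also divided among its annotated transcripts in a way that differed between libraries. The protein-coding transcript Nt5e-201 held 33.2% of the gene's TPM in replicate 1 and 46.3% in replicate 2. Nt5e-203, annotated as a retained intron, held 38.8% and 46.4%. Nt5e-202, also annotated as a retained intron, held 28.01% in replicate 1 and 7.31% in replicate 2, from 111.5 and 59.0 estimated fragments. Counted on Nt5e-201 alone, the gene was 3.31-fold higher in replicate 2 (95% interval 2.74 to 4.02, not counting the error of dividing fragments among transcripts), and its level was 0.95 TPM in replicate 1 and 2.78 TPM in replicate 2. Few reads crossed its introns: 7 of the 8 had a match in the authors' junction list, with 1 to 17 reads in both libraries together. Intron 2, which Nt5e-203 also splices out, had no match.

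Slc28a1 and Slc28a2 encode the concentrative nucleoside transporters CNT1 and CNT2, which couple uptake to sodium. CNT1 prefers pyrimidine nucleosides and CNT2 purine nucleosides and uridine. Slc28a1 (ENSMUSG00000025726.7, chromosome 7, 81114799 to 81170416, plus strand) had 80.2 TPM in replicate 1 and 115.4 TPM in replicate 2, from 8725 and 12056 fragments. The 1.61-fold difference (95% interval 1.57 to 1.66) exceeded counting error but not the 2-fold limit. Slc28a2 (ENSMUSG00000027219.9, chromosome 2, 122426477 to 122461137, plus strand) had 4.62 TPM in replicate 1 and 27.9 TPM in replicate 2, from 484.9 and 2742.7 estimated fragments. It was higher in replicate 2 by 6.60-fold (95% interval 5.99 to 7.28), the widest difference among the 10 genes, and 0.647% of all genes tested lay at least as far in that direction. Slc28a1 thus exceeded Slc28a2 17.4-fold in TPM in replicate 1 and 4.13-fold in replicate 2. These ratios leave out Gm14085, the near copy of Slc28a2 described next. Summed with it, Slc28a2 had 5.31 TPM in replicate 1 and 32.06 TPM in replicate 2.

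Slc28a2 has a near copy on the same chromosome and strand, Gm14085 (ENSMUSG00000079071.2, 122484941 to 122528040), which RefSeq names Slc28a2b, and fragments that match both had to be shared out by the quantifier. Their annotated coding sequences were the same at 94.8% of aligned bases, and 29.8% of the 76-base windows of Slc28a2-202 occurred unchanged in Gm14085-201. The first 90 coding bases of each are shown because they hold the kind of differences that let a read be placed, with the 7 differing bases in capitals (GENCODE M21, build mm10, transcript spans chr2:122440763-122461133 and chr2:122484941-122528040, plus strand).
Slc28a2-202: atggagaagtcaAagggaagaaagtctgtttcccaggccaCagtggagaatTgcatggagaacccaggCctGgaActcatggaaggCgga
Gm14085-201: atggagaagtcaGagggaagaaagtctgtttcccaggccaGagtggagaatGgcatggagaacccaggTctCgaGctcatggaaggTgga
Gm14085 had 0.69 TPM in replicate 1 and 4.13 TPM in replicate 2, 6.73-fold higher in replicate 2 (95% interval 5.44 to 8.41). With both genes added the difference was 6.62-fold (95% interval 6.06 to 7.24), and Gm14085 supplied 17.1% of the summed fragments in replicate 1 and 17.4% in replicate 2. The separate values of the copies rest on how shared fragments were divided and are uncertain. Slc28a1-201 and Slc28a2-202 were the same at 71.4% of aligned coding bases and shared no 76-base window.

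Most Slc28a2 fragments were placed on Slc28a2-202, with 93.2% of the gene's TPM in replicate 1 and 89.5% in replicate 2. Slc28a1-201 held 99.49% and 95.03% of Slc28a1. Its second coding transcript, Slc28a1-202, had 44.96 estimated fragments in replicate 1 and 610.7 in replicate 2, or 0.51% and 4.97% of the gene's TPM. The first intron of Slc28a1-202, the intron that sets it apart, had no match in the authors' junction list, while that of Slc28a1-201 was crossed by 140 reads in both libraries together.

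Of the purine enzymes, Ada was called higher in replicate 2 and Pnp, Gda and Xdh were not called. Ada (ENSMUSG00000017697.3, chromosome 2, 163726584 to 163750239, minus strand), adenosine deaminase, converts adenosine to inosine, and its loss in humans causes severe combined immunodeficiency. Its level was 79.3 TPM in replicate 1 and 208.1 TPM in replicate 2, from 4867 and 12139 fragments, 2.91-fold higher in replicate 2 (95% interval 2.81 to 3.01). The 6 T lymphocyte markers, of a cell type that also uses the enzyme, summed to 13.1 TPM in replicate 1 and 31.0 TPM in replicate 2, with 5 of 6 called higher in replicate 2; their part in the Ada difference was not tested. Fragments of Ada lay on Ada-201, the annotated coding transcript, which held 100% of the gene's TPM in replicate 1 and 99.7% in replicate 2.

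Pnp encodes purine nucleoside phosphorylase, which splits inosine and guanosine into base and ribose phosphate. Its row in the files (ENSMUSG00000021871.13, chromosome 14, 50931082 to 50965237, plus strand) was named through its 2 transcripts, since the later annotation gives that identifier to another gene. Pnp had 39.0 TPM in replicate 1 and 57.9 in replicate 2, and the 1.61-fold difference (95% interval 1.52 to 1.71) did not reach the limit. Pnp-202 held 91.2% of the gene's TPM in replicate 1 and 92.5% in replicate 2, but the 2 introns that set it apart from Pnp-201 had no match in the authors' junction list, where the 5 introns that both share were crossed by 255 to 480 reads. The span of Pnp overlaps a neighbouring near copy, Pnp2 (ENSMUSG00000068417.7, 50955992 to 50964749, plus strand), with 21.7 TPM in replicate 1 and 48.8 TPM in replicate 2, called 2.48-fold higher in replicate 2 (95% interval 2.31 to 2.67). The coding sequences of Pnp-202 and Pnp2-201 were the same at 98.2% of aligned bases, and 25.8% of the 76-base windows of Pnp-202 occurred unchanged in Pnp2-201. The stretch below shows how little can separate the copies: 1 base differs in 90, given in capitals (coding bases 4 to 93 of Pnp-202 and 49 to 138 of Pnp2-201, spans chr14:50944506-50965237 and chr14:50955992-50964749, plus strand).
Pnp-202: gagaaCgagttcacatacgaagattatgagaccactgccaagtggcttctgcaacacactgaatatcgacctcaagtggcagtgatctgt
Pnp2-201: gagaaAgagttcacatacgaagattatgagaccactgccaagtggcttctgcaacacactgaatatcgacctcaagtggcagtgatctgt
Pnp2 took 34.3% of the fragments of the pair in replicate 1 and 44.5% in replicate 2. Added together, the pair had 60.8 TPM in replicate 1 and 106.6 in replicate 2 and was higher in replicate 2 by 1.91-fold (95% interval 1.83 to 2.00). The separate values of Pnp and Pnp2 are uncertain, since they rest on how shared fragments were divided.

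Gda (ENSMUSG00000058624.8, chromosome 19, 21391307 to 21473445, minus strand), guanine deaminase, turns guanine into xanthine. Its level was 112.8 TPM in replicate 1 and 70.2 TPM in replicate 2, from 7931 and 6003 fragments. In scaled fragments it was 1.13-fold higher in replicate 1 (95% interval 1.095 to 1.171, exact binomial test, adjusted p = 9.29e-13) and not called. In TPM, which corrects for transcript length, it was 1.61-fold higher in replicate 1. Most of this level was assigned to Gda-203, a 1353-base transcript annotated as a retained intron, which held 86.4% of the gene's TPM in replicate 1 and 75.0% in replicate 2. The protein-coding Gda-201, of 5428 bases, had 15.4 TPM in replicate 1 and 17.5 TPM in replicate 2. On Gda-201 alone the direction turned, 1.29-fold higher in replicate 2 (95% interval 1.23 to 1.35), while Gda-203 was 1.67-fold higher in replicate 1. Gda's place in the order of levels rests on a transcript with no annotated protein: at the TPM of Gda-201 it would lie below Pnp and Enpp3 in both libraries.

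**Figure D3:**
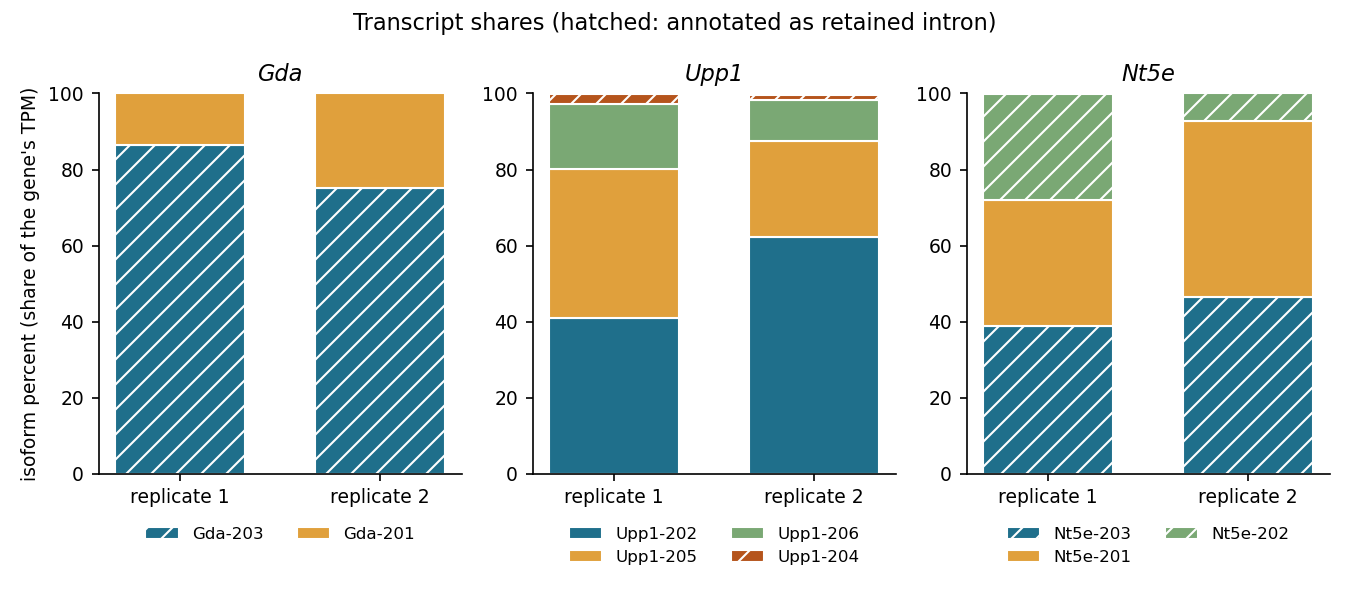
Stacked bars of the isoform percent, each transcript's share of its gene's TPM, for Gda, Upp1 and Nt5e in replicate 1 and, to its right, replicate 2; hatching marks transcripts annotated as retained introns. Gda-203 holds 86.4% and 75.0% of Gda, and Upp1-202 holds 41.1% and 62.2% of Upp1.

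Reads that cross introns gave a second view of Gda. In the authors' junction list, which adds both libraries together, introns 1, 2 and 3 of Gda-201 were crossed by 1590, 441 and 221 reads. Introns 4 and 5, which Gda-203 also splices out, were crossed by 30 and 27 reads. Intron 6, which Gda-203 keeps, was crossed by 37 reads, and the 7 introns beyond the end of Gda-203 by 9 to 349 reads with a median of 42. Junction reads thus fell from intron 1 to intron 4, inside the stretch that both transcripts share, with 37 reads at intron 6, where they part, against 27 at intron 5. They did not stay low beyond it, since intron 10, past the end of Gda-203, was crossed by 349 reads. These are sums with no replicate value, and reads across a junction also depend on the sequence around it.

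**Figure D4:**
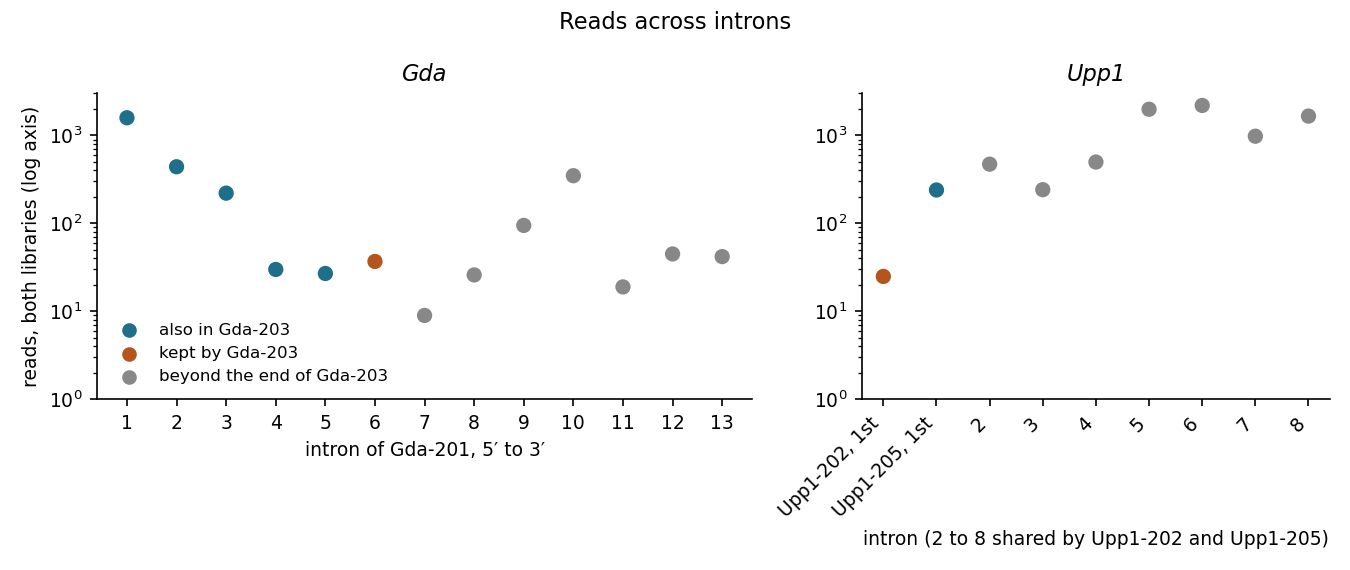
Reads across each intron on a log axis, both libraries together. Left: the 13 introns of Gda-201 in 5′ to 3′ order, from 1590 reads at the first to 42 at the last, coloured by their relation to Gda-203. Right: the first introns of Upp1-202 and Upp1-205, with 25 and 240 reads, and the 7 introns that both share.

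Xdh (ENSMUSG00000024066.8, chromosome 17, 73883895 to 73950196, minus strand), xanthine dehydrogenase, oxidises hypoxanthine to xanthine and xanthine to urate. Replicate 1 held 126.7 TPM of it and replicate 2 held 83.9 TPM, from 22797 and 14553 fragments. The gene was 1.34-fold higher in replicate 1 (95% interval 1.31 to 1.37) and was not called. Only 1 transcript of Xdh was quantified, Xdh-201, so its share of the gene was fixed in advance. Its 35 introns were each crossed by at least 3 and at most 4141 reads in both libraries together. Intron 34 of Xdh-206 and intron 4 of Xdh-207, which are in GENCODE M21 and which Xdh-201 lacks, were crossed by 226 and 135 reads. Aox1, aldehyde oxidase and a relative of Xdh in sequence, had 0.33 TPM in replicate 1 and 0.08 in replicate 2. Of the route that degrades urate in mouse liver, Urah had 86.1 TPM in replicate 1 and 55.8 in replicate 2 and Urad had 5.03 and 4.52 TPM. Uox, the first enzyme of that route, had 0 counts in both libraries, as did Allc. At this depth 3 counts correspond to 0.0678 CPM in replicate 1 and 0.0671 CPM in replicate 2 (CPM, counts scaled to library size).

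Cda and Upp1 act in sequence on pyrimidine nucleosides. Cda (ENSMUSG00000028755.3, chromosome 4, 138338424 to 138367992, minus strand), cytidine deaminase, makes uridine from cytidine. It had 553.9 TPM in replicate 1 and 567.6 TPM in replicate 2, from 14895 and 14221 fragments, and ranked 212th and 267th among all gene rows. Its difference was the smallest of the 10, 1.11-fold higher in replicate 2 (95% interval 1.09 to 1.14), and its direction reversed to 1.06-fold higher in replicate 1 with spike-in or library totals. Its 3 introns were crossed by 13618, 2381 and 1236 reads from 5′ to 3′, the first the highest count at any intron of the 10 genes.

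Upp1 (ENSMUSG00000020407.9, chromosome 11, 9118103 to 9136170, plus strand), uridine phosphorylase, splits uridine into uracil and ribose phosphate. It had 112.2 TPM in replicate 1 and 235.6 TPM in replicate 2, from 4003 and 8272 fragments, and was 2.41-fold higher in replicate 2 (95% interval 2.32 to 2.50). Cda exceeded it 4.94-fold in TPM in replicate 1 and 2.41-fold in replicate 2. Its relative Upp2 was at 3.95 TPM and 4.14 TPM, and Tymp, the phosphorylase of thymidine that also accepts uridine, had 96.5 TPM in replicate 1 and 234.3 in replicate 2, close to Upp1 in each library.

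For Upp1 the isoform table, chiefly in replicate 2, and the junction list of both libraries favoured different start sites. By the authors' isoform percent, Upp1-202 held 41.1% of the gene's TPM in replicate 1 and 62.2% in replicate 2, Upp1-205 held 39.0% and 25.3%, and Upp1-206 held 17.3% and 10.7%. Upp1-202 was 3.503-fold and Upp1-205 1.502-fold higher in replicate 2, values with no error for the division of fragments. The intron that follows the first exon of Upp1-202 was crossed by 25 reads in both libraries together, against 240 reads for that of Upp1-205, and the intron found in Upp1-206 and not in the other 2 by 17. The 7 introns that Upp1-202 and Upp1-205 share were crossed by 242 to 2195 reads. Upp1-202, with the larger isoform percent, was therefore the one with fewer reads across its first intron. Its lead in replicate 1 was small. By the isoform percent from posterior means, Upp1-205 led there, at 39.76% against 39.59%. The first intron of Upp1-205 is also annotated in Upp1-203, Upp1-207 and Upp1-208, which had 0 estimated fragments in both libraries. The windows at the 2 start sites, 404 bases apart, are shown because the readouts differ on which is used more (RefSeq, GRCm38.p6, chr11:9117853-9118152 and chr11:9118257-9118556, plus strand); capitals mark the 50 bases from RefSeq's start site on, which lies 4 bases from the start of Upp1-202 and at the start of Upp1-205.
Upp1-202: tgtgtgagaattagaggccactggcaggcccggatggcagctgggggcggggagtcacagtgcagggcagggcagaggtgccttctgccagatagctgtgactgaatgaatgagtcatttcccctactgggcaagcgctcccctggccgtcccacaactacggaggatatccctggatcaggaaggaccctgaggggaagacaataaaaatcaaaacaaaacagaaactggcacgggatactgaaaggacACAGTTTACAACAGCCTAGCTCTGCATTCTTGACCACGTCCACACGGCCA
Upp1-205: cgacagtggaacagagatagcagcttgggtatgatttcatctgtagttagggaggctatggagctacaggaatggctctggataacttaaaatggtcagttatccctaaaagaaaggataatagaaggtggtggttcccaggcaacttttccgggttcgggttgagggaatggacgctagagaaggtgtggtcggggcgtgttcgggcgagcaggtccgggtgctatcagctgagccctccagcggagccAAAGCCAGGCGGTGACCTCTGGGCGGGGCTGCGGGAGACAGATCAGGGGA
Bases G and C made up 55.0% of the first window and 55.3% of the second.

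RefSeq promoter windows, of 250 bases before and 50 after a start site, were given for 9 of the 10 genes, 11 windows in all. Searched on both strands, CAAAGTC, the first part of the motif of HNF4, was in none of the 11 windows and in 4.44% of 32851 windows of all genes. TTTATG, read by CDX factors, was in the windows of Gda and Slc28a2 and in 11.9% of all. AGATAA, read by GATA factors, was in that of Slc28a2 and in 11.2% of all. TATAAA, the letters of the TATA box, was in that of Enpp3 and in 13.6% of all. The Enpp3 match lay at -209 from the start site and on the strand opposite to the gene. The Slc28a2 window lies 14328 bases before the start of Slc28a2-202, the transcript that held most of its fragments. These matches are a description of letters only.

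The other genes of these routes were called in both directions. Of 43 other purine salvage and breakdown genes, 38 were tested, 5 were called higher in replicate 1 and 3 in replicate 2, and their median log2 ratio was -0.16. These are 13.2% and 7.89% of those tested, against 14.5% and 11.4% of all genes tested. The most abundant were Aprt, which salvages adenine, with 557.0 TPM in replicate 1 and 614.3 in replicate 2, Entpd8, and Guk1, the guanylate kinase, at 176.2 TPM and 159.2 TPM. Called higher in replicate 2 were Pnp2, Samhd1 and Entpd8, and the widest call toward replicate 1 was Aox1, at 4.22-fold from 64 and 13 fragments. Ampd1, the muscle AMP deaminase, and Nt5c1b had 0 counts in both libraries, as did Uox and Allc. Samhd1, which degrades deoxynucleotides, is named here because it was called.

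Of 20 other pyrimidine genes, 17 were tested, 1 was called higher in replicate 1 and 2 higher in replicate 2, with a median log2 ratio of -0.14. These are 5.88% and 11.8% of those tested, against the same 14.5% and 11.4%. Tymp was called 2.71-fold higher in replicate 2 (95% interval 2.63 to 2.78). Cmpk2, a mitochondrial nucleotide kinase induced by interferon, had 4.06 TPM in replicate 1 and 18.4 in replicate 2 and was 5.07-fold higher in replicate 2 (95% interval 4.60 to 5.60). Dctd, which deaminates dCMP, was called 2.64-fold higher in replicate 1. Nme2, a nucleoside diphosphate kinase, had 126.9 TPM in replicate 1 and 120.4 in replicate 2, and Uckl1, a uridine kinase-like protein, had 126.5 TPM and 82.9 TPM; neither was called. Dpys, which acts in uracil breakdown, had 0 counts in both libraries.

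Among 14 other transporters 11 were tested, 1 was called higher in replicate 1 and 2 higher in replicate 2, and the median log2 ratio was -0.10. Their shares of 9.09% and 18.2% stand against 14.5% and 11.4% of all genes tested. Slc23a4, whose rat counterpart carries nucleobases with sodium, had 60.2 TPM in replicate 1 and 169.2 in replicate 2 and was 3.14-fold higher in replicate 2 (95% interval 2.97 to 3.31). Slc17a4, an organic anion transporter that in humans carries urate, was higher in replicate 2 by 3.41-fold (95% interval 3.09 to 3.77). The equilibrative transporter Slc29a1 had 56.1 TPM in replicate 1 and 28.9 in replicate 2 and was not called, and its relative Slc29a2 was called 2.68-fold higher in replicate 1. The urate carrier Slc2a9, at 12.3 TPM and 22.1 TPM, was not called.

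For genes of synthesis from small precursors most ratios were above 1, but few were called. All 21 were tested, 2 were called higher in replicate 1 (Rrm1 and Ctps2) and 0 higher in replicate 2, and the median log2 ratio was 0.53 with 18 of 21 ratios above 1. The 9.52% called higher in replicate 1 stand against 14.5% of all genes tested, and 19 of 21 were not called. Rrm1, a subunit of ribonucleotide reductase, had 4.40 TPM in replicate 1 and 1.17 TPM in replicate 2, 3.34-fold higher in replicate 1 (95% interval 2.82 to 3.96). Impdh2 and Impdh1, which make the first committed step to guanine nucleotides, were at 93.7 TPM and 34.6 TPM in replicate 1 and 42.9 TPM and 19.0 TPM in replicate 2, and Adss, on the adenine branch, was at 15.4 TPM and 16.4 TPM. The 8 markers of crypt stem and dividing cells summed to 299.3 TPM in replicate 1 and 216.0 TPM in replicate 2, with 1 called higher in replicate 1; their part in the list's values was not tested.

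Of 14 receptors for adenosine and extracellular nucleotides, the products and substrates of Nt5e and Enpp3, 4 were called higher in replicate 2 (Adora2b, P2ry2, P2ry4 and P2ry13) and 0 in replicate 1, with a median log2 ratio of -0.33. The 28.6% called higher in replicate 2 stand against 11.4% of all genes tested. The ATP-gated channels P2rx4, with 43.2 TPM in replicate 1 and 46.0 in replicate 2, and P2rx1, at 18.1 TPM and 13.2 TPM, were not called. Adora2b, a receptor of adenosine, had 13.1 TPM in replicate 1 and 58.3 in replicate 2, 4.94-fold higher in replicate 2 (95% interval 4.59 to 5.32). P2ry2, which responds to ATP and UTP, was 8.69-fold higher in replicate 2 (95% interval 7.66 to 9.89). P2ry4, a receptor of UTP, had 0 counts in replicate 1 and 51 in replicate 2, and the exact 95% interval of its difference began at 15.55-fold higher in replicate 2. The 6 macrophage and dendritic cell markers summed to 105.8 TPM in replicate 1 and 197.5 in replicate 2, and their part in these receptor values was not tested.

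**Figure D5:**
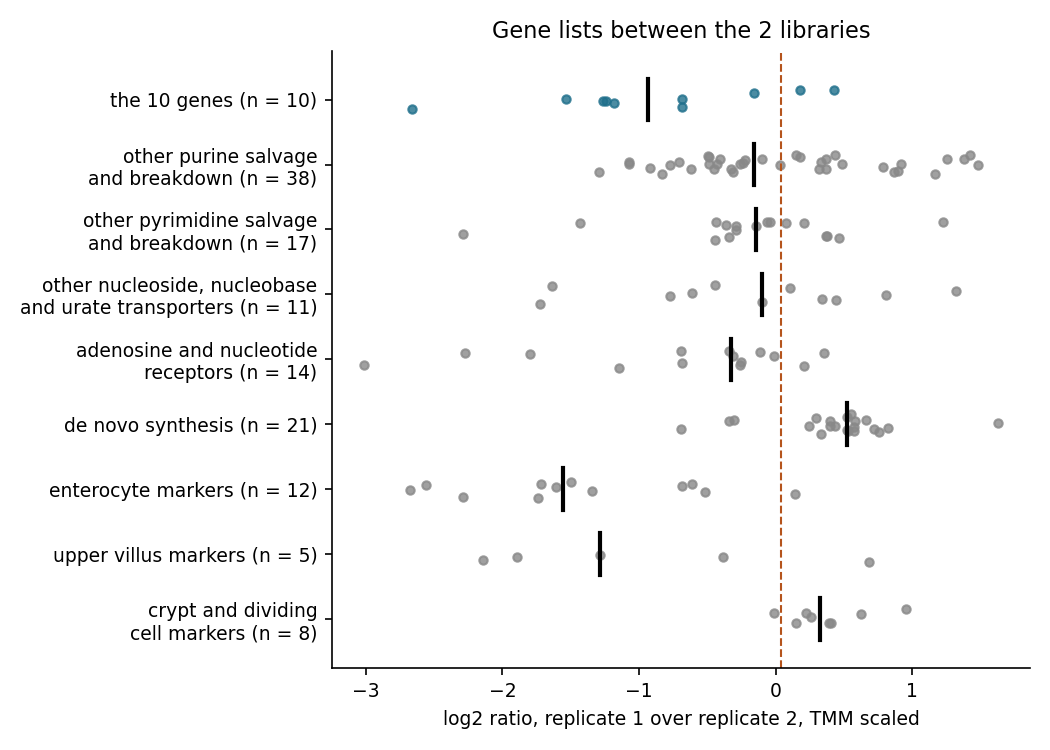
Log2 ratio of replicate 1 over replicate 2 for every tested gene of each list, 1 point per gene, with a black bar at the list's median and a dashed line at the median of all genes tested, 0.04. The 10 genes have a median of -0.93, the enterocyte markers of -1.55 and the synthesis genes of 0.53.

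The median log2 ratio was -0.93 over the 10 genes and -1.55 over the 12 enterocyte markers. It was -3.90 over fat cell, -1.81 over red blood cell, -1.44 over Paneth cell and -1.16 over goblet cell markers. Upper villus markers had -1.29, macrophages and dendritic cells -1.12, T lymphocytes -0.93, plasma and B cells -0.40 and endothelium -0.00. Other markers went the other way: exocrine pancreas 9.05, stomach mucosa and Brunner glands 7.81, mast cells and basophils 0.94 and liver 0.58. So did fibroblasts at 0.44, crypt cells at 0.33 and smooth muscle at 0.31. The part of these cell types in the ratios of the 10 genes was not tested. Of the 10 genes only Slc28a2 lay beyond the enterocyte markers' median by at least 2-fold in the same direction. Ada was 1.01-fold higher in replicate 1 on the scale that sets that median to a ratio of 1. The content of G and C in transcripts ran from 43.0% in Enpp3 to 57.1% in Cda; over 15758 genes it had a Spearman rho of 0.366 with TPM in replicate 1, of 0.376 in replicate 2 and of -0.176 with the log2 ratio, across genes that share both libraries.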

How the data were processed

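Polyadenylated RNA of whole duodenum was sequenced as 2 libraries of 1 group, so no comparison of conditions exists. Per the text deposited beside each file, reads were placed on mm10 with GENCODE M4; neither the aligner nor the quantifier is named there. The authors deposited, per gene and transcript, expected counts (fragments matching several places are shared out), TPM and FPKM, isoform percent per transcript, and the quantifier's bounds on TPM, held here as a score that is not used in any test. Their junction list holds counts of reads across introns on mm9, both libraries added, which were matched to annotated introns by chromosome, strand, length and spacing; no coordinate was converted and none is printed from it.

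Symbols came from GENCODE M21 (42754 of 43346 gene rows, 338 of them through their transcripts). Left out were 26248 numbered rows, all at 0, 96 ERCC spike-in rows, which held 1.35% and 1.36% of counts in replicate 1 and replicate 2, and 1 phiX row. Rows without a symbol stayed in library sizes and tests and held 0.032% and 0.0301%. Expected counts were rounded for the test. For each gene averaging 10 or more counts over the libraries, an exact binomial test, two-sided, took the TMM sizes of edgeR 4.0.16 (R 4.3.3), and its p was adjusted by Benjamini-Hochberg; a call needs an adjusted p under 0.05 and at least 2-fold. With no second group, a quasi-likelihood contrast could not be fitted. Intervals are exact 95% Clopper-Pearson intervals and, like the floors, cover counting error only. They hold no term for the spread between libraries, and reads carry no molecular identifiers. Medians use log2 of scaled CPM plus 0.5. The common biological coefficient of variation over the libraries was 0.5294. Alternatives included DESeq2 1.42.0 size factors, spike-in totals and enterocyte scaling.

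The 10 genes, the 5 pathway lists and the 17 marker lists were chosen with earlier results of these data known, so no list is independent support. Of each pathway list the text names the 3 genes with the highest mean TPM, the widest call in each direction and the genes at 0 in both libraries; Samhd1, Ctps2, P2ry2, P2ry13, Upp2, Urah and Urad were added after their values were seen. Sequences are from RefSeq GRCm38.p6 (promoters) and GENCODE M21 (coding bases).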

Additional observations from a re-analysis of the deposited data

How the results depend on the processing

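No paired analysis was possible because the series has 1 group of 2 libraries. Of the 5 genes called higher in replicate 2, all 5 were also called with DESeq2 size factors, posterior mean counts and no filter. The same 5 were called with sizes taken without pancreas and stomach genes. With deposited TPM all 5 reached the 2-fold limit. That setting had no test, so its calls here and below rest on the fold limit alone. Sizes from spike-in or library totals called 4, where 7.86% or 7.93% of all genes tested were called higher in replicate 2. Nt5e was at a ratio of 0.504 or 0.502. Of the genes still called, Enpp3 at 0.496 or 0.494 and Upp1 at 0.491 or 0.489 lay close to the limit. These sizes turned Cda to 1.06. Each ratio moved by 0.24 log2 units (1.55 with enterocyte scaling, a median of 0.16 with deposited TPM). The share of calls higher in replicate 1 was 71.8% or 71.5%, against 56.0% with TMM, 66.4% with deposited TPM and 98.0% with enterocyte scaling. Enterocyte scaling gave 3 of the 10 genes higher in replicate 1 and 1 in replicate 2, and turned these ratios above 1: Ada 1.01, Enpp3 1.23, Nt5e 1.25, Upp1 1.22, Pnp 1.82, Slc28a1 1.82 and Cda 2.63; it brought Xdh to 3.94 and Gda to 3.32. A 3-fold limit left 1 gene higher in replicate 2, with 5.22% of all genes tested called in that direction. A 1.5-fold limit called 7 of the 10 genes higher in replicate 2, adding Pnp and Slc28a1, with 21.1% of all genes tested. Chosen after seeing the data, coding transcripts alone turned Gda to a ratio of 0.778, because its other transcript was left out. Over all genes, calls higher in replicate 1 and replicate 2 were 12131 and 252 with enterocyte scaling, 3816 and 3355 at 1.5-fold and 1208 and 831 at 3-fold.

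Counts in the gene lists are small, and shares of all genes tested moved too. Called higher in replicate 1 were 20.1% of all genes with spike-in totals, 19.9% with library totals or TPM and 13.8% with no filter. That share was 76.2% with enterocyte scaling, 24.0% at 1.5-fold and 7.59% at 3-fold. Called higher in replicate 2 were 7.86%, 7.93% and 10.1% with spike-in totals, library totals and TPM. The share was 1.58% with enterocyte scaling, 21.1% at 1.5-fold and 5.22% at 3-fold. Other purine genes higher in replicate 1 were 9 with spike-in totals, library totals or a 1.5-fold limit, 8 with TPM, 30 with enterocyte scaling and 2 at 3-fold; higher in replicate 2 they were 1 with either total or TPM, 0 with enterocyte scaling or at 3-fold and 8 at 1.5-fold. Other pyrimidine genes higher in replicate 1 were 15 with enterocyte scaling, 2 with no filter and 0 at 3-fold, and higher in replicate 2 they were 0 with enterocyte scaling and 1 at 3-fold. Other transporters higher in replicate 1 were 2 with either total, TPM or a 1.5-fold limit, 7 with enterocyte scaling and 0 at 3-fold, and higher in replicate 2 they were 0 with enterocyte scaling and 4 at 1.5-fold. Synthesis genes higher in replicate 1 were 5 with either total or TPM, 20 with enterocyte scaling, 9 at 1.5-fold and 1 at 3-fold, and 1 was higher in replicate 2 at 1.5-fold. Receptors higher in replicate 1 were 1 with TPM and 7 with enterocyte scaling, and 2 were higher in replicate 2 with enterocyte scaling. The causes were not tested beyond the scales themselves. With 1 library left out, a level is that of the other library. As the mean of both libraries, Cda was at 500.0 in FPKM and at 592 TPM without pancreas and stomach genes, and Slc28a2-202 held 87.3% from posterior means. At this depth 3 counts are 0.0678 CPM in replicate 1 and 0.0671 CPM in replicate 2, which limits what a count of 0 shows.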
